A study of Mus musculus with 48 samples.

Results

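The 39 genes described here encode proteins of the lysosome or of its supply and control. They comprise 10 proteases, 11 glycosidases, 3 sulfatases, 6 proteins of lipid breakdown and lipid transfer, 5 membrane proteins and a group of 4. That group holds 2 ion channels, an enzyme of the mannose 6-phosphate tag and a transcription factor. The 39 genes were taken from a list of gene symbols with no threshold on measured values. The list was, however, drawn up with earlier results of these data known. The genes were followed through 16 groups of mouse intestine. The count table holds 54532 gene identifiers, of which 21986 passed a filter on low counts, and all 39 listed genes passed. The study sampled whole-thickness duodenum and ileum, the proximal and distal ends of the small intestine, on the day of birth (day 0), on days 2, 4, 6 and 8, and in weeks 2, 3 and 4, with 3 samples per region and age. All mice were C57BL/6J from one supplier, untreated, of both sexes, with usually 2 or 3 ages taken per litter, and the labels give the housing as standard germ-free. Pups were kept with their dam up to day 21 and fed chow from then on, so the step from week 2 to week 3 ends at the age of weaning. The series was made to catalogue RNA of the small intestine during the period of risk for necrotizing enterocolitis, a disease of newborns with inflammation and death of gut tissue.

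Lysosomes are the acidic compartments in which cells break down what they take up. Their hydrolases are tagged with mannose 6-phosphate on the way through the Golgi apparatus, delivered by receptors, and work at the low pH that a proton pump keeps up. In suckling rodents the absorptive cells of the distal small intestine take up milk protein by endocytosis and digest it in a large lysosomal vacuole, a cell form that is replaced around weaning.

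Total counts ran from 16824021 to 65042327 per sample. The samples labelled number 3 of day 6 were left out of all comparisons, which leaves 46 samples and 2 in each day 6 group. Pdx1, which marks the proximal gut, read 0.115 CPM in the left-out sample labelled duodenum and at 14.6 CPM in the one labelled ileum, where CPM is the usual count scaled to the effective size of its library. Over the suckling ages, taken here as day 0 to week 2, the duodenum markers Pdx1, Gata4 and Onecut2 were all lower in the ileum and the ileum markers Fabp6, Slc10a2 and Fgf15 all higher. Some samples stood apart from their groups. The 39 genes summed to 21540 CPM in ileum day 0 number 1 and to 12490 and 14560 CPM in the other day 0 ileum samples. Fabp6, the ileal bile acid binding protein, stood at 42.0 CPM in ileum week 4 number 1 and at 1265 and 1970 CPM in the others. In the duodenum, Pdx1 was low in day 0 number 1 at 2.42 CPM, in week 2 number 2 at 3.99 CPM and in week 4 number 2 at 1.81 CPM. In the ileum it was high in day 0 number 2, at 6.53 CPM against 0.111 and 0.666 CPM, and it read 2.23, 0.781 and 2.92 CPM in the week 4 samples. The labels do not say that samples came from separate animals, so p-values measure the spread between these samples.

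Many lysosomal genes carry in their promoters the E-box CACGTG, the core of the longer motif bound by Tfeb, the transcription factor that raises lysosomal gene expression. The promoters of the 39 genes were searched for it. RefSeq promoter windows (GRCm38.p6, 250 bases before to 50 after the start site, 300 bases in all) were found for 34 of the 39 genes. The letters CACGTG, which read the same on both strands, occurred in 12 of the 34 genes (35.3%) and in 8.09% of all 27025 genes with a window. The nested, longer palindrome TCACGTGA occurred in 4 of the 34 (11.8%) and in 1.12% of all genes. A still longer form, with one more base at each end, occurred in 0 of the 34 and in 0.37% of all genes. Among 49 other lysosomal pathway genes with a window, 28.6% held the core, 14.3% TCACGTGA and 4.08% the longest form. The motif was thus not particular to the 39 genes. The 12 genes with the core were Arsa, Ctsa, Ctsd, Ctsl, Gaa, Gla, Glb1, Lamp1, Lgmn, Mcoln1, Naglu and Nagpa. The stretches below are examples from the genes with the core whose values follow, which also include Lgmn and Gaa. Shown are Lamp1, with 4 copies, Gla and Mcoln1, with 2 in the stretch, Ctsd, with 1 of the 2 in its window, and Ctsl, with 1. Each is given 5′ to 3′ on the strand of the gene, with the core in capitals. Lamp1 is at chr8:13159088-13159160 on the plus strand and ends at the last base before the start site. Gla is at chrX:134601182-134601244 on the minus strand, Mcoln1 at chr8:3500436-3500491 on the plus strand, Ctsd at chr7:142387908-142387937 on the minus strand and Ctsl at chr13:64370739-64370768 on the minus strand. All lie before the RefSeq start of their window. The Ctsd and Ctsl stretches and part of the Mcoln1 stretch nevertheless fall inside the annotated spans of these genes (GENCODE M21). A match of letters is a description of the window, and no binding was measured. The part of the motif in the changes described below was not tested.
Lamp1: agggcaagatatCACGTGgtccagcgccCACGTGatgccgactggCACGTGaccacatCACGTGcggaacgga
Gla: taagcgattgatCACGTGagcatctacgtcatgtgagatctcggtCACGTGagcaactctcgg
Mcoln1: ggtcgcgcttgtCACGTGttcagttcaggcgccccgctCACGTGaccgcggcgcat
Ctsd: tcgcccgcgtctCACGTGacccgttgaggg
Ctsl: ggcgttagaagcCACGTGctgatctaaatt

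Together the 39 genes took a larger share of all counts in the ileum than in the duodenum at the suckling ages, and a small share in both regions afterwards. At week 2 they took 2.00%, 2.11% and 2.15% of the counts in the 3 ileum samples and 0.895%, 0.915% and 1.04% in the duodenum samples. At week 3 the shares were 0.346% to 0.467% in the ileum and 0.307% to 0.377% in the duodenum, and at week 4 they were 0.218% to 0.342% and 0.277% to 0.347%. Mitochondrial genes took 13.4% to 14.5% of counts at week 2 and 14.6% to 16.9% at week 3 in the ileum, and 16.5% to 21.0% and 17.9% to 23.7% in the duodenum. No week 3 or week 4 sample reached the lowest suckling sample of its own region, which was 0.398% in the duodenum and 0.988% in the ileum. In bulk tissue, fewer cells of a type and less RNA per cell cannot be told apart.

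**Figure D1:**
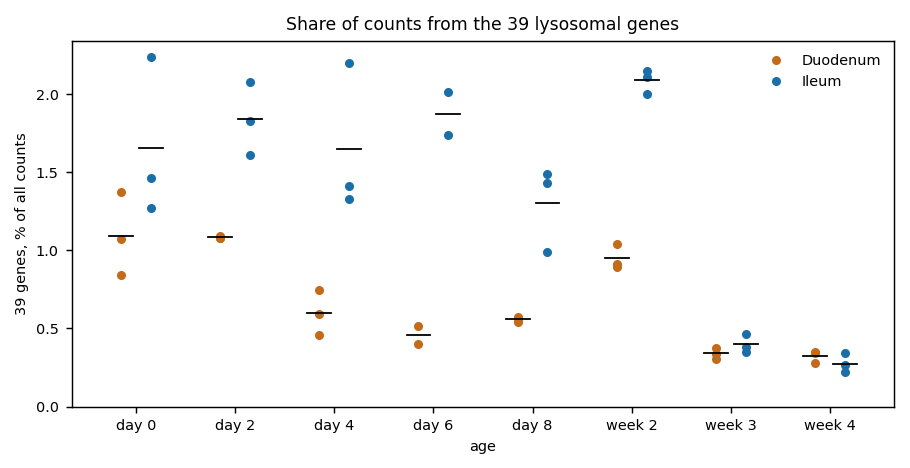
Share of all counts taken by the 39 lysosomal genes (y axis, percent) against age (x axis), 1 point per sample, with bars at group means and the regions in colour. Ileum samples sit between 0.988% and 2.24% up to week 2 and between 0.218% and 0.467% at week 3 and week 4, where the regions overlap.

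Per kilobase of annotated exon, Lgmn read highest of the 39 at ileum week 2, at 1284 CPM per kilobase. The length joins all annotated exons of a gene, 2323 bases for Lgmn and 6489 for Ctsl, and can exceed that of the expressed transcript. Ranks between genes are therefore rough. Before division by length, Ctsl had a mean of 3031 CPM at ileum week 2 and Lgmn 2982 CPM. Lgmn encodes legumain, an endopeptidase that cuts after asparagine and activates cathepsins. Ctsl followed at 467 and Lamp1 at 411 CPM per kilobase, while Gm2a, whose product presents gangliosides to hexosaminidase, was lowest at 3.20. The exon lengths are those of GENCODE M21. Age moved nearly all of the genes. By edgeR's quasi-likelihood test over the 8 ages, with Benjamini-Hochberg adjustment over all genes tested, 38 of 39 were called (adjusted p under 0.05) in the duodenum, where 67.4% of all genes were, and 38 in the ileum, where 58.7% were. The gene not called was Gm2a in the duodenum and Npc1, a cholesterol transporter of the lysosomal membrane, in the ileum. The ratio of a gene's highest to its lowest group mean had a median of 3.05 in the duodenum and of 5.44 in the ileum over the 39 genes. Ctsl had the widest duodenal ratio, 49.9, and Mcoln3 the widest ileal one, 316.

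**Figure D2:**
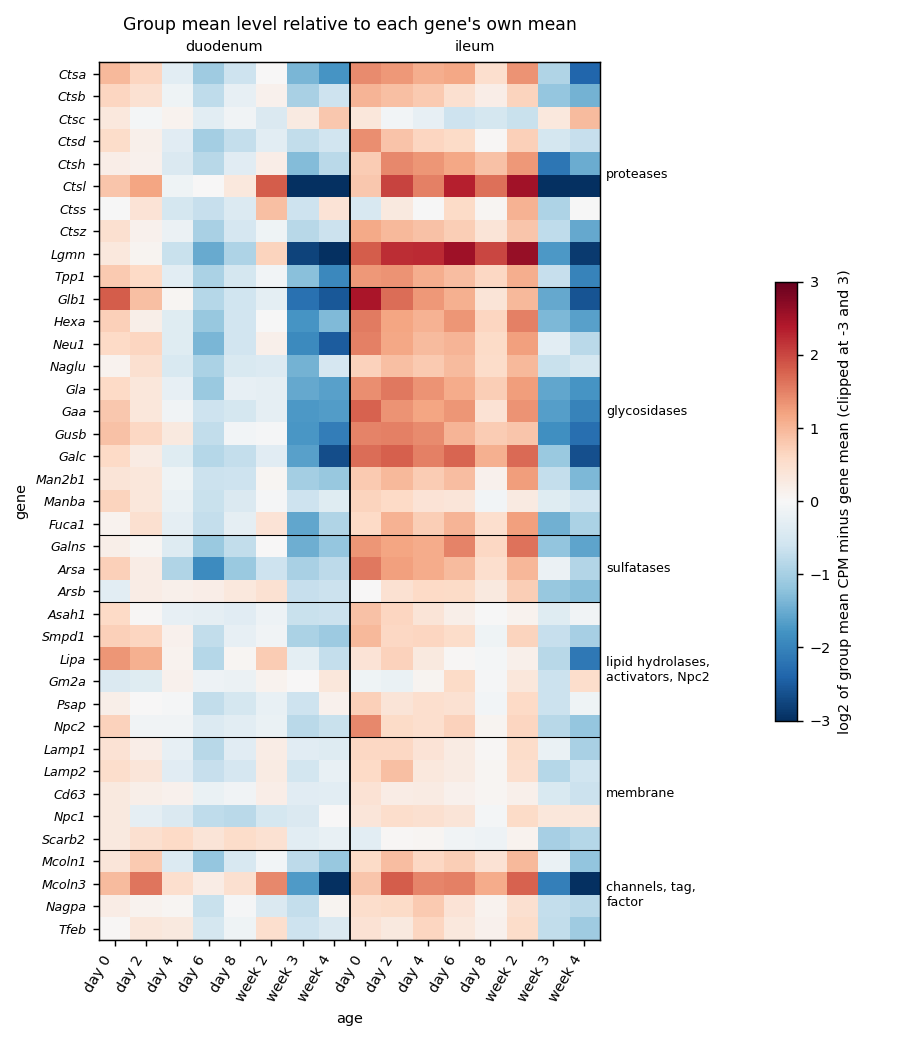
Group mean level of each of the 39 genes (rows, by role) at each age (columns, duodenum left, ileum right), as log2 of the group mean CPM minus the gene's own mean over groups, with colours clipped at -3 and 3. Most rows are above their mean in the ileum up to week 2 and below it in both regions at week 3 and week 4, and Ctsc is lowest at week 2 in both regions.

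The first comparison asked what happened to the lysosomal genes between week 2 and week 3. They fell almost as a body, in both regions. In the ileum, where 26.8% of all genes were called, 37 of the 39 were called lower, against 13.9% of all genes, 1 was called higher and Npc1 was not called, at -0.22 on the log2 scale. In the duodenum, where 18.3% of all genes were called, 32 were called lower, against 10.6% of all genes, 1 was called higher, and 6 were not called. The median log2 fold change of the 39 genes was -1.61 in the ileum and -1.08 in the duodenum, and that of all genes tested was 0.04 and 0.03. Falls of more than 2-fold were called for 31 genes in the ileum (8.2% of all genes) and 21 in the duodenum (5.8%). The week 3 samples all lay below the week 2 samples for 37 genes in the ileum, where 22.6% of all genes did so, and for 35 in the duodenum, where 19.7% did.

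**Figure D3:**
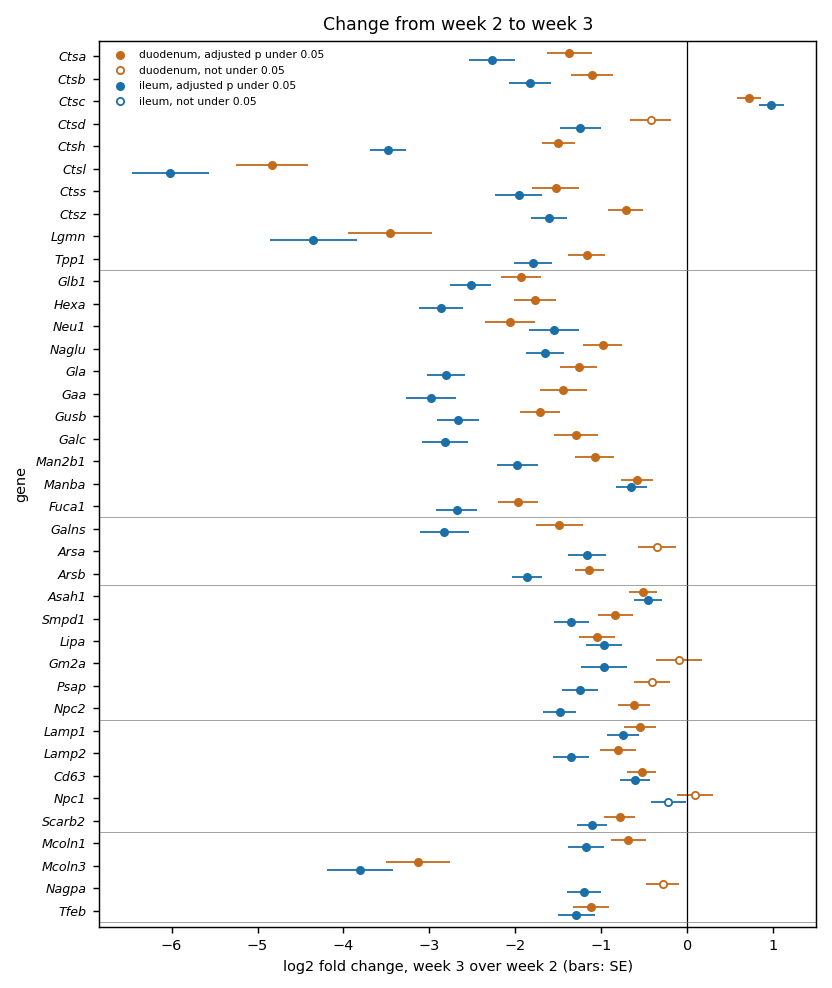
Log2 fold change from week 2 to week 3 (x axis) for each of the 39 genes (y axis, by role) in duodenum and ileum, from edgeR, with bars of 1 standard error and filled points where the adjusted p is under 0.05. Points lie left of 0 apart from Ctsc in both regions and Npc1 in the duodenum, and Ctsl, Lgmn and Mcoln3 lie farthest left in both.

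Among the proteases, 9 of 10 fell in the ileum and 8 in the duodenum. Ctsl, on chromosome 13 (64359337 to 64370890, mm10), encodes cathepsin L, a cysteine endopeptidase. At week 2 Ctsl read 3494, 2516 and 3082 CPM in the ileum and 2058, 1803 and 1724 CPM in the duodenum. At week 3 it was 75.5, 37.5 and 27.2 CPM in the ileum and 85.3, 56.2 and 54.7 CPM in the duodenum. The highest week 3 sample was thus far below the lowest week 2 sample in each region. The log2 fold change was -6.02 ± 0.45 (SE, n = 3 and 3) in the ileum (edgeR adjusted p = 3.27e-13) and -4.83 ± 0.42 in the duodenum (adjusted p = 2.98e-11), the largest fall of the 39 genes in both.

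Lgmn, on chromosome 12 (102394084 to 102439813), stood at 2957, 2854 and 3136 CPM in the ileum at week 2 and at 285, 86.5 and 67.1 CPM at week 3. Duodenal levels went from 754, 797 and 757 CPM to 108, 56.2 and 45.8 CPM. No samples of the 2 ages overlapped, and number 1 was the highest week 3 sample in both regions. The falls were -4.35 ± 0.51 in the ileum (edgeR adjusted p = 1.81e-08) and -3.46 ± 0.49 in the duodenum (adjusted p = 1.16e-06). Ctsh, the aminopeptidase cathepsin H, stood at 193, 199 and 229 CPM in the week 2 ileum and at 20.4, 20.5 and 14.7 CPM at week 3, and at 94.6, 91.3 and 99.9 CPM and then 34.5, 39.7 and 26.9 CPM in the duodenum. The ileum was the higher region before the step and the lower one after it. Its log2 fold changes were -3.48 ± 0.21 (adjusted p = 7.34e-16) and -1.50 ± 0.19 (adjusted p = 1.32e-07).

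Ctsd, the aspartic protease cathepsin D, fell in the ileum, from 383, 415 and 451 CPM to 189, 195 and 144 CPM (-1.24 ± 0.24, edgeR adjusted p = 7.96e-05). The duodenum had 232, 187 and 192 CPM and then 163, 169 and 124 CPM, which was not called (-0.43 ± 0.23, adjusted p = 0.228). Of the other proteases, Ctsa, which also protects neuraminidase and beta-galactosidase, Ctsb, Ctss and Tpp1 fell by more than 2-fold in both regions. Their log2 fold changes ran from -2.27 (Ctsa) to -1.79 (Tpp1) in the ileum and from -1.53 (Ctss) to -1.11 (Ctsb) in the duodenum. On the log2 scale Ctsz fell by 1.61 in the ileum and fell by 0.72 in the duodenum, a duodenal call lost without week 2 number 1 (adjusted p = 0.0603) or week 3 number 3 (adjusted p = 0.0551).

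Ctsc was the exception. It encodes cathepsin C (dipeptidyl peptidase 1), which activates the serine proteases of neutrophils, mast cells and cytotoxic lymphocytes, and lies on chromosome 7 (88278085 to 88310888). Ileal levels were 42.0, 37.3 and 37.6 CPM at week 2, then 88.1, 83.2 and 59.2 CPM at week 3, then 130, 134 and 99.1 CPM at week 4. Duodenal levels were 47.0, 45.6 and 44.8 CPM, then 81.4, 73.0 and 72.0 CPM, then 93.4, 121 and 111 CPM. Every week 3 sample was above every week 2 sample, in both regions, as in 19.3% of all genes in each. The rise at week 3 was 0.98 ± 0.14 in the ileum (edgeR adjusted p = 1.26e-06) and 0.72 ± 0.14 in the duodenum (adjusted p = 0.000239), in steps where 12.9% and 7.7% of all genes were called higher.

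All 11 glycosidases fell in both regions. These enzymes trim sugars from glycoproteins, glycolipids and glycogen. Gaa, the acid alpha-glucosidase that degrades glycogen, stood at 136, 145 and 162 CPM in the week 2 ileum and at 24.8, 15.4 and 15.72 CPM at week 3 (-2.98 ± 0.29, edgeR adjusted p = 1.89e-10). In the duodenum Gaa went from 50.5, 47.4 and 46.9 CPM to 21.8, 15.3 and 16.2 CPM (-1.44 ± 0.28, adjusted p = 0.000131). Hexa, the alpha subunit of beta-hexosaminidase, went from 563, 569 and 663 CPM to 100.5, 78.4 and 67.8 CPM in the ileum (-2.86 ± 0.26, adjusted p = 2.41e-11). In the duodenum Hexa went from 237, 199 and 195 CPM to 60.7, 61.4 and 62.6 CPM (-1.77 ± 0.25, adjusted p = 6.69e-07). Neither gene had overlapping samples between the ages.

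Galc, which removes galactose from galactosylceramide, stood at 96.9, 122 and 126 CPM in the week 2 ileum and at 24.3, 12.3 and 12.01 CPM at week 3 (-2.82 ± 0.27, edgeR adjusted p = 1.05e-10). Duodenal levels went from 26.0, 29.8 and 27.7 CPM to 12.3, 11.1 and 10.6 CPM (-1.30 ± 0.26, adjusted p = 0.000216). Gla, the alpha-galactosidase that acts on globotriaosylceramide, is on the X chromosome. It went from 61.8, 67.4 and 75.9 CPM to 13.1, 9.75 and 6.41 CPM in the ileum (-2.81 ± 0.22, adjusted p = 1e-12) and from 25.6, 22.3 and 23.7 CPM to 11.8, 9.56 and 8.42 CPM in the duodenum (-1.26 ± 0.21, adjusted p = 1.61e-05). Both genes were above the duodenum in every ileum sample at week 2, and the ranges of the regions overlapped at week 3. The Y-linked Ddx3y was above 1 CPM in 1 of 3 samples at week 2 and in 2 of 3 at week 3 in each region, and the part of sex in these values was not tested. The other glycosidases called lower by more than 2-fold in both regions were Glb1, Neu1, Gusb, Man2b1 and Fuca1, with log2 fold changes of -2.68 (Fuca1) to -1.55 (Neu1) in the ileum and -2.07 (Neu1) to -1.08 (Man2b1) in the duodenum. Naglu passed 2-fold in the ileum alone, at -1.65, and Manba had the smallest fall of the group in both regions, at -0.65 and -0.58. The ileal call of Manba was lost without week 3 number 2 (edgeR adjusted p = 0.0584) and the duodenal one without week 2 number 1 or 3 or week 3 number 3 (0.0638 to 0.148).

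The sulfatases act on sulfated sugars and lipids. Galns, which removes sulfate from keratan sulfate and chondroitin 6-sulfate, stood at 169, 167 and 193 CPM in the week 2 ileum and at 27.4, 23.8 and 23.3 CPM at week 3 (-2.83 ± 0.29, edgeR adjusted p = 5.3e-10). Its duodenal levels went from 67.8, 52.2 and 51.6 CPM to 23.9, 19.7 and 17.4 CPM (-1.49 ± 0.28, adjusted p = 8.08e-05). Arsb, the sulfatase of dermatan sulfate, went from 37.1, 39.9 and 40.5 CPM to 13.7, 10.04 and 8.39 CPM in the ileum (-1.87 ± 0.17, adjusted p = 5.91e-11) and from 34.5, 30.4 and 31.3 CPM to 16.4, 11.7 and 15.4 CPM in the duodenum (-1.14 ± 0.17, adjusted p = 2.01e-06). The week 3 samples of both genes lay below all week 2 samples. Arsa, the sulfatase of sulfatide, fell in the ileum (-1.17 ± 0.22, adjusted p = 7e-05) and was not called in the duodenum (-0.35).

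The genes of lipid breakdown moved less. All 6 were called lower in the ileum, 3 of them by more than 2-fold, and 4 in the duodenum. Npc2, which hands cholesterol to the transporter Npc1, went from 173, 193 and 192 CPM to 84.8, 68.8 and 45.7 CPM in the ileum (-1.48 ± 0.19, edgeR adjusted p = 1.02e-07). The duodenum went from 115, 98.3 and 97.0 CPM to 73.6, 63.1 and 65.7 CPM (-0.62 ± 0.19, adjusted p = 0.0177), a call lost without week 2 number 1 or week 3 number 2 or 3 (adjusted p 0.057 to 0.0873). Smpd1, the acid sphingomyelinase, went from 15.65, 16.7 and 16.9 CPM to 6.60, 6.76 and 5.93 CPM in the ileum (-1.35 ± 0.20, adjusted p = 1.64e-06). The duodenum went from 11.51, 8.12 and 9.18 CPM to 6.04, 4.92 and 5.16 CPM (-0.83 ± 0.20, adjusted p = 0.00214). No samples of the 2 ages overlapped for either gene. Psap, the precursor of the saposins that present lipids to several of these hydrolases, went from 550, 541 and 589 CPM to 257, 267 and 183 CPM in the ileum (-1.25 ± 0.21, adjusted p = 1.08e-05). It stood at 344, 300.2 and 304 CPM and then at 253, 231 and 230 CPM in the duodenum, where the test did not call it (-0.41 ± 0.21, adjusted p = 0.185). Lipa, the lysosomal acid lipase, fell to a like degree in both regions, by 1.05 in the duodenum and 0.97 in the ileum on the log2 scale. Gm2a was called in the ileum (-0.97) and not in the duodenum (-0.10). Asah1, the acid ceramidase, had small changes of -0.46 and -0.51 in ileum and duodenum, and each of these calls was lost with any of 4 single samples left out (week 2 number 2 or 3 or week 3 number 2 or 3 in the ileum, week 2 number 1 or 3 or week 3 number 2 or 3 in the duodenum; adjusted p 0.0513 to 0.172).

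By the median log2 fold change the membrane proteins moved least in the ileum, at -0.75 against -1.11 for the lipid genes. In the duodenum the medians of these groups were nearly the same, at -0.55 and -0.56. Lamp1 and Lamp2 encode the abundant glycoproteins that line the lysosomal membrane. Lamp1 went from 1032, 1018 and 1247 CPM to 687, 687 and 592 CPM in the ileum (-0.75 ± 0.19, edgeR adjusted p = 0.00225). Duodenal Lamp1 went from 953, 798 and 847 CPM to 613, 667 and 495 CPM (-0.55 ± 0.19, adjusted p = 0.0352), a call that was lost with any of 4 single samples left out (week 2 number 1 or 3, week 3 number 1 or 3; adjusted p 0.0661 to 0.174). Lamp2 went from 433, 443 and 519 CPM to 212, 192 and 141 CPM in the ileum (-1.35 ± 0.21, adjusted p = 3.42e-06) and from 407, 377 and 383 CPM to 222, 254 and 191 CPM in the duodenum (-0.81 ± 0.21, adjusted p = 0.00456). Scarb2, the receptor that carries glucocerebrosidase to the lysosome, went from 119, 95.4 and 111 CPM to 63.4, 50.8 and 37.4 CPM in the ileum (-1.10 ± 0.18, adjusted p = 5.21e-06) and from 145, 137 and 140 CPM to 89.9, 79.2 and 74.7 CPM in the duodenum (-0.79 ± 0.17, adjusted p = 0.000915). In these 3 genes every week 3 sample was below every week 2 sample. Cd63, a tetraspanin of late endosomes, fell by 0.61 in the ileum and fell by 0.53 in the duodenum. Its ileal call was lost without week 3 number 3 (edgeR adjusted p = 0.0579) and its duodenal call without week 2 number 1 (adjusted p = 0.156) or week 3 number 3 (adjusted p = 0.137). Npc1, at 59.8 to 66.2 CPM and then 51.2 to 60.7 CPM in the ileum, was the gene that was called in neither region. Exons of Npc1 overlap those of Rmc1, whose counts equal 0.661 of those of Npc1, and whether the counting used strand is not given in the sources used here.

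Of the last group, Mcoln3 and Mcoln1 are cation channels of endosomes and lysosomes. Mcoln3, on chromosome 3 (146117450 to 146141806), stood at 365, 327 and 417 CPM in the week 2 ileum, then at 36.6, 18.2 and 24.3 CPM in week 3, then at 2.56, 0.714 and 0.334 CPM in week 4. Its duodenal levels were 330, 263 and 288 CPM, then 34.8, 31.4 and 34.4 CPM, then 5.37, 11.2 and 12.3 CPM. Each step took all samples of the later age below those of the earlier one. The fall at week 3 was -3.81 ± 0.39 in the ileum (edgeR adjusted p = 6.65e-10) and -3.13 ± 0.37 in the duodenum (adjusted p = 3.72e-08). Mcoln1 fell less, from 134, 132 and 131 CPM to 56.6, 56.8 and 62.2 CPM in the ileum (-1.18 ± 0.21, adjusted p = 2.11e-05) and from 73.8, 58.3 and 58.3 CPM to 44.1, 40.5 and 33.8 CPM in the duodenum (-0.69 ± 0.20, adjusted p = 0.0141). The duodenal call of Mcoln1 was lost without week 2 number 1 (adjusted p = 0.0917) or week 3 number 3 (adjusted p = 0.0844). Tfeb went from 27.2, 25.4 and 27.1 CPM to 11.0, 10.6 and 11.0 CPM in the ileum (-1.29 ± 0.22, adjusted p = 1.01e-05). Duodenal Tfeb went from 38.3, 17.9 and 21.1 CPM, with number 1 well above the others, to 13.2, 10.7 and 11.6 CPM (-1.12 ± 0.21, adjusted p = 0.00012). Nagpa, which uncovers the mannose 6-phosphate tag, fell in the ileum (-1.20 ± 0.20, adjusted p = 6.52e-06) and was not called in the duodenum (-0.28).

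The counts of the week 3 step held with single samples left out. In the ileum between 36 and 38 of the 39 genes were called, and in the duodenum between 26 and 33, with 26 reached without duodenum week 2 number 1 and without week 3 number 3. Without duodenum week 2 number 2, the sample low in Pdx1, 33 were called.

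**Figure D4:**
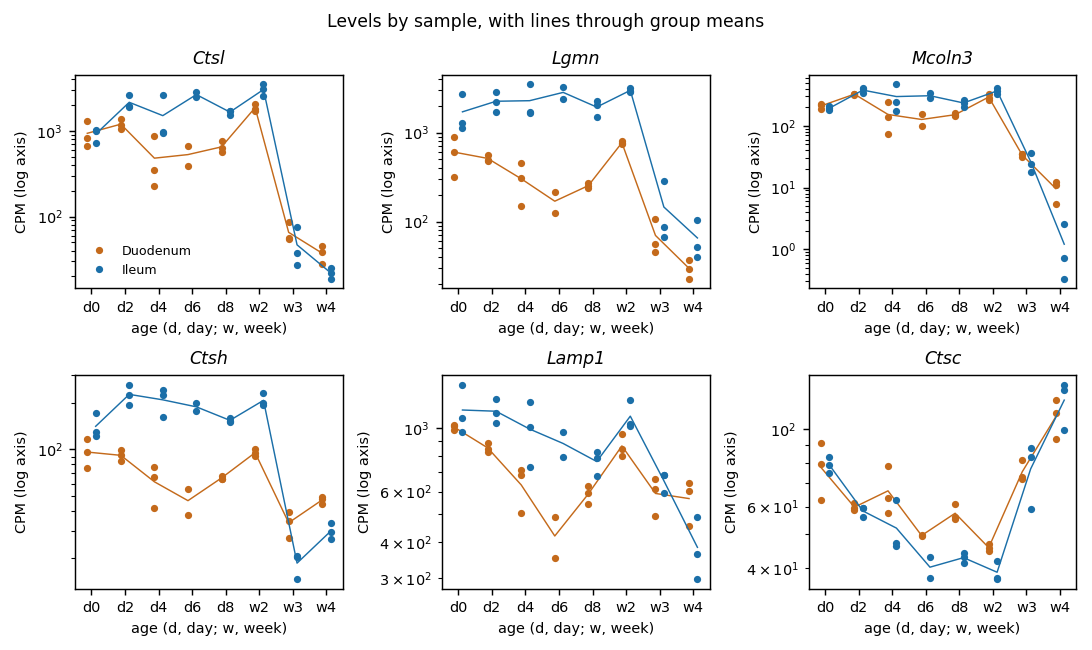
Levels of Ctsl, Lgmn, Mcoln3, Ctsh, Lamp1 and Ctsc (y axes, CPM, log scale) against age (x axes), 1 point per sample in each region, with lines through group means. Ctsl, Lgmn, Mcoln3 and Ctsh drop between week 2 and week 3, Lamp1 less so, and Ctsc rises from week 2 to week 4.

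Genes of the same pathway outside the 39 were counted in the same step. Of 66 such genes, 45 were called lower and 1 higher in the ileum, where 13.9% of all genes were called lower, and 20 lower and 2 higher in the duodenum, where 10.6% were called lower. Of 18 other hydrolases, 13 fell and 1 rose in the ileum. The gene that rose was Hgsnat, an acetyltransferase of heparan sulfate breakdown (0.49). The proton pump fell nearly whole in the ileum, with 14 of 15 genes called lower and the largest fall in Atp6v0a1 (-1.37), and 5 of 15 were called lower in the duodenum. Of 12 genes of hydrolase delivery, 8 fell in the ileum, most of all Gga2, an adaptor for mannose 6-phosphate receptors (-3.49). Of 11 regulators, 4 fell, among them the GTPase gene Rragd and Flcn, both at -1.36, while Lamtor2 stood at 0.03 and was not called. Of 10 other membrane proteins 6 fell, and Slc17a5, the sialic acid exporter, went from 945 to 1141 CPM down to 72.2 to 112 CPM (-3.48). Of the 12 delivery, 11 regulator and 10 membrane genes, 2, 2 and 5 were called lower in the duodenum, the first 2 of these counts being near the share of all genes.

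Markers of other cell types were read beside this step. Of 8 macrophage markers 1 was called in each region, Csf1r, which fell by 3.08 in the ileum and 2.42 in the duodenum, while Adgre1, C1qa, C1qb, C1qc, Mrc1, Cx3cr1 and Cd163 were not called. Summed over the 8 markers, Csf1r included, the level went from 133 to 167 CPM at week 2 to 35.6 to 43.4 CPM at week 3 in the ileum. In the duodenum this sum went from 109 to 157 CPM to 42.9 to 49.3 CPM. With 7 of the 8 not called, the sum does not stand for macrophages as a whole. Of 7 markers of the endocytic suckling enterocyte, Dab2 (-5.13 and -4.86), Fcgrt (-4.75 and -4.98) and Lrp2 (-5.00 and -2.29) fell in ileum and duodenum, and Cubn, Amn, Pllp and Clu were not called in either. Their sum went from 3463 to 4470 CPM to 1922 to 2072 CPM in the ileum and from 3621 to 6353 CPM to 860 to 1132 CPM in the duodenum. All 4 markers of the adult-type enterocyte rose in both regions, among them the sucrase-isomaltase gene Sis (7.74 and 4.69). Of 7 epithelial markers, Vil1, Krt8 and Krt19 rose in both regions and Epcam, Cdh1, Cdx2 and Krt18 were not called. None of these markers was at 0 in all samples, and their part in the fall of the lysosomal genes was not tested.

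The next comparison asked whether the ileum and duodenum differed while the mice suckled. Averaged over the 6 ages from day 0 to week 2, 34 of the 39 genes were higher in the ileum, 2 were lower and 3 were not called, where 57.7% of all genes were called, 28.3% higher and 29.4% lower. The median log2 difference was 0.87 for the 39 genes and 0.04 for all genes tested. All 11 glycosidases, all 3 sulfatases, all 4 of the channel, tag and factor group, 9 of 10 proteases, 4 of 6 lipid genes and 3 of 5 membrane genes were higher in the ileum. At each single age between 33 and 37 of the 39 ileum means lay above the duodenum means. At week 3 there were 22 and at week 4 there were 8. The order of the means was not counted over all genes.

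**Figure D5:**
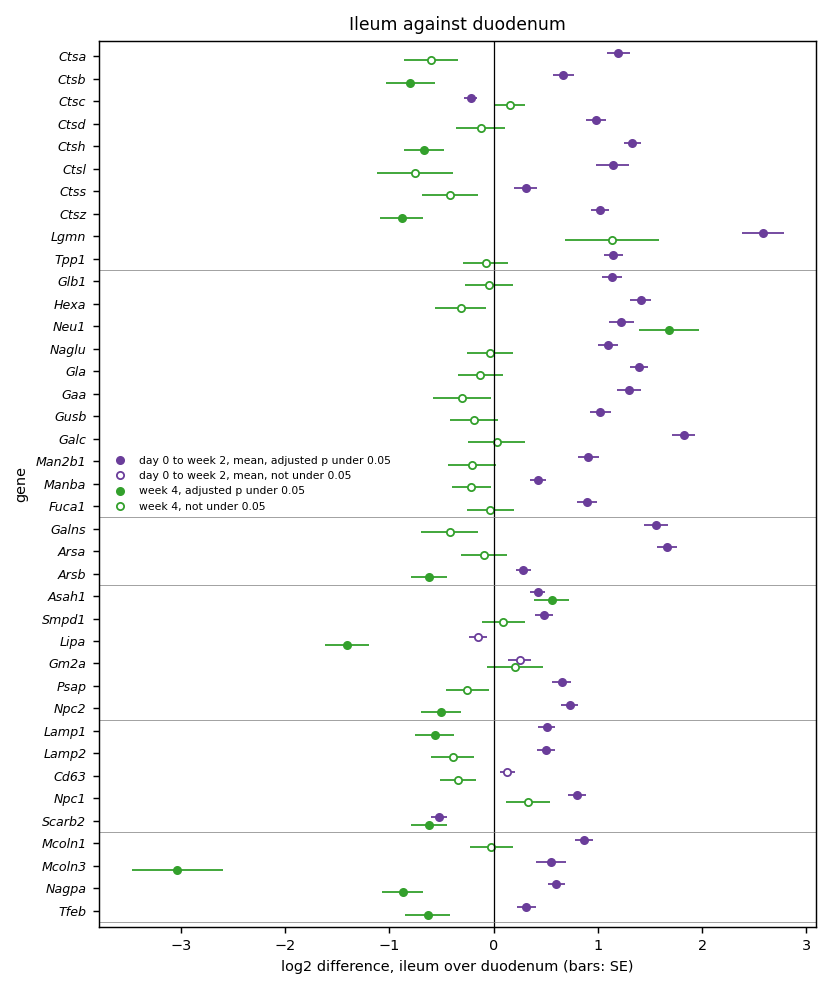
Log2 difference of ileum over duodenum (x axis) for each of the 39 genes (y axis, by role), averaged over day 0 to week 2 and at week 4, from edgeR, with bars of 1 standard error and filled points where the adjusted p is under 0.05. Most suckling points lie right of 0, with Lgmn farthest at 2.58, and most week 4 points lie left of 0, with Mcoln3 farthest at -3.03.

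The widest regional gap was that of Lgmn. Over the 17 suckling samples of each region it ran from 1117 to 3494 CPM in the ileum, with a median of 2260, and from 125 to 899 CPM in the duodenum, with a median of 454. The regions did not overlap. Lgmn differed by 2.58 ± 0.20 (log2, SE; edgeR adjusted p = 6.46e-13). Galc came next, at 57.0 to 160 CPM with a median of 96.9 in the ileum and at 17.8 to 62.4 CPM with a median of 27.7 in the duodenum, a difference of 1.82 ± 0.11 (adjusted p = 2.66e-16). Of the duodenum samples, day 0 number 1 alone reached into the ileal range. Arsa (1.66), Galns (1.56), Hexa (1.41), Gla (1.39), Ctsh (1.33), Gaa (1.302), Neu1 (1.23), Ctsa (1.20), Tpp1 (1.15), Ctsl (1.14), Glb1 (1.14), Naglu (1.10), Gusb (1.02) and Ctsz (1.02) were also over 2-fold higher in the ileum, with edgeR adjusted p from 6.84e-17 to 8.67e-08. Ctsh ran from 121 to 262 CPM in the ileum and from 37.7 to 117 CPM in the duodenum, with no overlap.

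A pair of genes went the other way. Scarb2 ran from 72.7 to 119 CPM in the suckling ileum, with a median of 96.3, and from 113 to 192 CPM in the duodenum, with a median of 140, a difference of -0.52 ± 0.07 (edgeR adjusted p = 1.78e-07). Nearly all duodenal samples lay above the ileal ones. Ctsc ran from 37.3 to 82.9 CPM in the ileum and from 44.8 to 90.9 CPM in the duodenum, ranges that overlap widely, at -0.22 ± 0.06 (adjusted p = 0.00226). Lipa (-0.15), Gm2a (0.25) and Cd63 (0.13) were not called. Gm2a passed the threshold in 10 of the 42 alternative settings tried for it, Cd63 in 6 and Lipa in 2.

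The regional difference stood beside other differences between the same samples. Over the suckling ages all 6 smooth muscle and all 4 fibroblast markers were higher in the ileum, with summed levels of 12.9 to 164 CPM against 4.68 to 41.7 CPM and of 65.7 to 547 CPM against 4.94 to 140 CPM. Of 10 pancreatic acinar markers 9 were lower in the ileum, with sums of 1.48 to 24.4 CPM against 12.2 to 611 CPM. The 611 CPM came from duodenum day 2 number 1 alone, and the medians were 9.32 CPM in the ileum and 32.0 CPM in the duodenum. Of 8 macrophage markers 1 was called, Csf1r at 0.57, with sums of 96.7 to 167 CPM in the ileum and 42.5 to 172 CPM in the duodenum. Of the 7 endocytic enterocyte markers Lrp2 (3.91), Cubn (1.62), Amn (1.42) and Dab2 (1.35) were higher in the ileum, Clu (-1.53) and Fcgrt (-0.56) lower, and Pllp was not called. Acinar markers at 0 in some samples included Pnlip, in 32 of 46. The part of these markers in the lysosomal values was not tested. Of the 66 other lysosomal pathway genes, 52 were higher in the ileum, among them all 15 genes of the proton pump, and 5 were lower. Beside these counts of markers and pathway genes, 28.3% of all genes were called higher in the ileum in this comparison and 29.4% lower.

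At single ages fewer genes passed. At day 0, 11 of the 39 were higher in the ileum and 2 lower, where 6.1% of all genes were called, 2.97% higher and 3.14% lower. This rested on single samples: without ileum day 0 number 1, the sample with the highest sum of these genes, edgeR called none of the 39, with 11 at an unadjusted p under 0.05. Without duodenum day 0 number 2 it called 4 and without number 3 it called 2. DESeq2 called 15 on the 46 samples of the main fit, and edgeR 15 without ileum day 0 number 2, the one high in Pdx1. Lgmn, at 2741, 1117 and 1278 CPM in the ileum and 899, 599 and 314 CPM in the duodenum, had a log2 difference of 1.503 ± 0.45 (adjusted p = 0.0396), which was 0.99 without ileum day 0 number 1 (adjusted p = 0.334) and was also lost without duodenum number 2 or 3 (adjusted p = 0.122 and 0.213). Its day 0 samples did not overlap between the regions. Mitochondrial genes took 15.9% of the counts in ileum day 0 number 1 and 17.3% to 29.8% in the other day 0 samples, and their part in these differences was not tested. Ddx3y was above 1 CPM in 3 of 3 duodenum and 1 of 3 ileum samples at day 0, and the part of sex was not tested.

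At week 2, 24 of the 39 genes were higher in the ileum and 1 lower, where 22.4% of all genes were called, 10.6% higher and 11.8% lower. The highest differences were those of Galc (2.05 ± 0.26, edgeR adjusted p = 4.76e-07) and Lgmn (1.96 ± 0.46, adjusted p = 0.00218). The gene that was lower was Lipa (-0.62), a call lost without duodenum week 2 number 1 or 3 or ileum week 2 number 1 or 2 (adjusted p 0.0549 to 0.148). For 32 genes all 3 ileum samples lay above all 3 duodenum samples, as they did for 24.7% of all genes, and Ctsl was among them although the test did not call it (0.70 ± 0.36, adjusted p = 0.164).

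At week 4 the ileum was no longer the higher region for most of the genes, and most were not called in either direction. The median log2 difference was -0.26 for the 39 genes and 0.08 for all genes tested. Over the alternative fits, 5 to 13 of the 39 were called lower. Of the 39 genes, 11 were lower in the ileum and 2 higher, where 28.4% of all genes were called, 13.9% lower and 14.5% higher. Mcoln3, at 0.334 to 2.56 CPM against 5.37 to 12.3 CPM, differed by -3.03 ± 0.44 (edgeR adjusted p = 5.91e-06). Lipa, at 39.2 to 59.0 CPM against 103 to 155 CPM, differed by -1.41 ± 0.21 (adjusted p = 8.02e-06). Both were below the duodenum in every ileum sample. Neu1, the lysosomal sialidase, was higher in the ileum, at 91.8 to 229 CPM against 34.3 to 62.7 CPM in the duodenum (1.68 ± 0.29, edgeR adjusted p = 5.48e-05), again with no overlap. The other gene that was higher was Asah1 (0.56), a call lost without duodenum week 4 number 1 (adjusted p = 0.0826) or ileum week 4 number 2 (adjusted p = 0.123). Without ileum week 4 number 1, the sample low in Fabp6, the counts were 12 lower and 3 higher and the 3 differences were -4.07, -1.62 and 1.93. Without ileum week 4 number 3, 8 genes were called in all, and without duodenum week 4 number 2, the one low in Pdx1, 12.

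Whether the step at week 3 itself differed between the regions was tested as the difference of the 2 steps. The fall was larger in the ileum for 4 of the 39 genes and smaller for none, where 1.38% of all genes were called, 0.623% with a lower and 0.755% with a higher value in the ileum. They were Ctsh (-1.98 ± 0.27, edgeR adjusted p = 2.8e-05), Gla (-1.54 ± 0.30, adjusted p = 0.00294), Galc (-1.53 ± 0.36, adjusted p = 0.0196) and Gaa (-1.54 ± 0.39, adjusted p = 0.0296), whose samples are given above. In all 4 the ileum was the higher region at week 2, and at week 3 its levels overlapped those of the duodenum or, for Ctsh, lay below them. Galc was lost in 7 of the 12 fits that leave out 1 sample and Gaa in 8, with adjusted p up to 0.0794 and 0.0998, while Ctsh and Gla stayed under 0.05 in all 12. The count was 7 without ileum week 3 number 1, and 2 without ileum week 2 or week 3 number 2 or 3, duodenum week 2 number 1 or 3, or duodenum week 3 number 1. The median over the 39 genes was -0.73 and that over all genes 0.02. The steps of Ctsl (-1.19, adjusted p = 0.38), Lgmn (-0.89, adjusted p = 0.76) and Mcoln3 (-0.68, adjusted p = 0.774), with the largest falls of all, were not shown to differ between the regions, nor were those of Galns (-1.34, adjusted p = 0.0754) and Tfeb (-0.17, adjusted p = 0.969). Galns passed with DESeq2 (adjusted p = 0.0302). The value farthest in the other direction was that of Neu1 (0.52), which was not called.

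Before weaning, many of the genes fell between day 0 and day 8 in both regions. In the duodenum, group means were lowest among the suckling ages at day 6 for 32 of the 39 genes, a group of 2 samples. In the ileum the lowest suckling age was day 8 for 30 genes. The highest mean of all ages was at day 0 for 26 duodenal and 16 ileal profiles, while 11 others of the ileum peaked at week 2. These counts of ages were not made over all genes, so they describe the 39 without a background. Tests of day 8 were added after the values had been seen. Between day 0 and day 8 the duodenum had 29 of the 39 genes called lower and Arsb higher, where 41.2% of all genes were called, 19.2% lower and 22% higher. The ileum had 20 lower and 0 higher, where 19.3% of all genes were called, 10.7% lower and 8.56% higher. Without ileum day 0 number 1, or without ileum day 8 number 1, 9 of the 39 were called. Mitochondrial genes took 32.7% of the counts in ileum day 8 number 1 and 23.7% or less in the others, and their part in the fall was not tested. Ddx3y was above 1 CPM in 3 of 3 duodenum and 1 of 3 ileum samples at day 0. At day 8 it was above 1 CPM in 0 of 3 samples of each region, and the part of sex was not tested.

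Glb1, the acid beta-galactosidase, fell farthest in both regions. Its day 0 mean was 884 ± 173 CPM (SD, n = 3) in the duodenum and 1356 ± 392 CPM in the ileum, and its day 8 mean 165 ± 8.54 and 328 ± 67.8 CPM. On the log2 scale it changed by -2.43 ± 0.24 (SE; edgeR adjusted p = 4.18e-10) and by -2.05 ± 0.24 (adjusted p = 4.13e-08), with no overlap of the samples. Ctsd fell from 452, 362 and 302 CPM to 157, 142 and 159 CPM in the duodenum (-1.28 ± 0.24, adjusted p = 3.3e-05) and from 980, 452 and 553 CPM to 206, 278 and 289 CPM in the ileum (-1.36 ± 0.24, adjusted p = 6.16e-05). Npc2 fell from 430, 239 and 293 CPM to 108, 137 and 129 CPM in the ileum (-1.36 ± 0.19, adjusted p = 1.89e-06). For both genes every day 8 sample was below every day 0 sample.

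From day 8 to week 2 some of the genes were called higher and none lower. Of the 39 genes, 10 were called higher in the duodenum, where 15.7% of all genes were called, 6.75% higher and 8.93% lower. In the ileum 9 were called higher, where 6.64% of all genes were called, 4.17% higher and 2.47% lower. In duodenum and ileum 29 and 30 of the 39 were not called, with values down to -0.41 (Nagpa, duodenum) and -0.14 (Ctsc, ileum). Markers moved over the same interval: the duodenal endocytic enterocyte sum was 1843 to 2036 CPM at day 8 and 3621 to 6353 CPM at week 2, and the ileal sum 1737 to 2424 CPM and then 3463 to 4470 CPM. The duodenal sum of the macrophage markers, Csf1r included, was 65.2 to 70.1 CPM and then 109 to 157 CPM. The ileal mitochondrial share of counts was 18% to 32.7% and then 13.4% to 14.5%. Ddx3y was above 1 CPM in 0 of 3 samples of each region at day 8 and in 1 of 3 at week 2. The part of the markers, of the mitochondrial share and of sex in the rises was not tested. In the duodenum Ctsl rose from 569, 627 and 753 CPM to the week 2 levels above (1.52 ± 0.37, edgeR adjusted p = 0.00496) and Lgmn from 240.1, 248.9 and 272 CPM (1.60 ± 0.45, adjusted p = 0.0146), both without overlap. In the ileum the largest called rises were those of Man2b1 (1.13 ± 0.23, adjusted p = 0.0033) and Galns (1.01 ± 0.27, adjusted p = 0.0196). These counts rested on single samples. Leaving 1 out gave 2 to 8 called genes for the duodenum: 2 without day 8 number 2 or week 2 number 1, 4 without day 8 number 1, and 6 without day 8 or week 2 number 3. For the ileum the range was 0 to 7: 0 without day 8 number 1 (13 at an unadjusted p under 0.05, edgeR), and 2, 4 and 1 without week 2 number 1, 2 and 3. Over all genes, ileal calls went from 1460 to 60 without day 8 number 1, and duodenal calls from 3448 to 825 without week 2 number 1. The call of Lgmn was lost without any of 3 samples (adjusted p 0.0541 to 0.0575), that of Man2b1 without ileum day 8 number 1 (0.0838) and that of Galns without that sample or week 2 number 1 or 3 (0.0541 to 0.228).

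Week 2 against day 0 therefore mixed falls and rises. In the duodenum 19 of the 39 genes were lower and 3 higher, where 23.5% of all genes were called, 11.3% lower and 12.1% higher. In the ileum 5 were lower and 4 higher, where 12.3% of all genes were called, 5.92% lower and 6.43% higher. In the duodenum Ddx3y was above 1 CPM in 3 of 3 samples at day 0 and in 1 of 3 at week 2. In the ileum it was above 1 CPM in 1 of 3 at both ages, and the part of sex was not tested. Ctsl, Arsb and Ctss, the cathepsin of antigen presentation, were higher at week 2 in both regions, and Ctsh in the ileum as well (0.56). Leaving out any 1 of 5 samples ended the call of Ctsh (edgeR adjusted p 0.0727 to 0.201) and that of Ctsl in the duodenum (0.99; 0.0676 to 0.152), and the duodenal call of Ctss ended without day 0 number 2 (0.0701) or week 2 number 1 (0.112). Ctsl in the ileum went from 999, 728 and 1014 CPM at day 0 to its week 2 range (1.73 ± 0.37, edgeR adjusted p = 0.00105). Ctss rose by 1.52 ± 0.27 in the ileum (adjusted p = 0.000108). Glb1 was lower in both regions (-2.13 and -1.46), as was Ctsc, which fell by 1.02 ± 0.14 in the ileum (adjusted p = 2.29e-06) before its later rise.

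On chow, between week 3 and week 4, changes were fewer. In the duodenum 5 of the 39 genes were higher and 3 lower, where 12.7% of all genes were called, 7.75% higher and 4.96% lower. In the ileum 4 were higher and 11 lower, where 16.1% of all genes were called, 8.26% higher and 7.81% lower. The mitochondrial share of counts in the ileum was 14.6% to 16.9% at week 3 and 22.1% to 35.2% at week 4, and its part in these changes was not tested. Ddx3y was above 1 CPM in 2 of 3 samples of each region at week 3 and in 0 of 3 at week 4, and the part of sex was not tested. Mcoln3 fell further, with a log2 fold change of -4.49 ± 0.45 in the ileum (edgeR adjusted p = 2.19e-09) and -1.81 ± 0.36 in the duodenum (adjusted p = 0.000552). Galc fell as well, from the week 3 levels above to 5.59, 6.27 and 5.14 CPM in the ileum (-1.51 ± 0.27, adjusted p = 8.04e-05) and to 5.66, 5.56 and 5.52 CPM in the duodenum (-1.02 ± 0.26, adjusted p = 0.00702). In these genes no samples of the 2 ages overlapped, and Galc ended at like levels in both regions. In the ileum Ctsa (-1.47), Lipa (-1.31), Tpp1 (-1.31), Ctsl (-1.08) and Glb1 (-1.05) also fell by more than 2-fold, with edgeR adjusted p from 1.28e-05 to 0.0403, and Gm2a rose (1.18, adjusted p = 0.00185). The fall of Ctsl was -0.55 without ileum week 3 number 1 (adjusted p = 0.463), and it was lost without any one week 4 sample (adjusted p 0.0587 to 0.121). Ctss rose again in both regions, by 1.04 in the duodenum and 0.92 in the ileum, and Ctsc continued to rise, by 0.52 and 0.65. The calls of Ctss were lost without duodenum week 3 number 3 (0.0579), ileum week 3 number 3 (0.0812) or ileum week 4 number 2 (0.0614), and that of Ctsc in the duodenum without week 3 number 2 or 3 or week 4 number 2 (0.0526 to 0.0692). In the duodenum 5 of the 39 were called without week 3 number 3. Summed lymphocyte markers stood at 3.53 to 13.1 CPM at week 3 and at 93.9 to 259 CPM at week 4 in the ileum, and at 4.69 to 7.46 and 61.1 to 75.0 CPM in the duodenum. The part of lymphocytes in the rises of Ctss and Ctsc was not tested.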

How the data were processed

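Total RNA of whole-thickness duodenum and ileum was sequenced (Illumina NovaSeq), as the labels' protocols state. The authors deposited estimated counts per gene, already whole numbers, in a table whose own name gives tximport. STAR 2.6.1d, Salmon 0.14.2, DESeq2 1.30.1 and the build mm10 are named, without roles, per the submitters' processing notes. The annotation release and the use of strand are not given in the sources used here. The authors also deposited a scaled signal per region, which the files call normalized counts. In its 40 columns it equalled the estimated count times one factor per column, and it was used for gene symbols. No column of per-sample values was left unused (0 columns). Coordinates and exon lengths came from GENCODE M21 (GRCm38, which is mm10), matched by Ensembl identifier, and promoters from RefSeq.

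Counts of 46 samples were fitted together in edgeR 4.0.16 (R 4.3.3; TMM scaling, filterByExpr, robust quasi-likelihood fit, one mean per group), and p-values were adjusted by Benjamini-Hochberg over 21986 genes within each of 17 comparisons. A gene is called at an adjusted p under 0.05. Standard errors are the absolute log2 fold change over the square root of F. The left-out samples are the 2 of day 6 numbered 3, which look exchanged between the regions.

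The 39 genes, the other lists and the tests were chosen with earlier results of these data known. Values by sample are given for the 2 genes of each role with the largest ileal change at week 3, the 2 highest and 2 lowest in the regional difference, the 2 with the smallest p in the difference of steps, and Ctsd, Psap, Lamp1, Tfeb, Mcoln1 and Mcoln3. Others are named where called at an absolute log2 change of at least 1 or where a count of few genes needed names.

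Alternatives were RLE size factors, no filter, a mean count of at least 10, DESeq2 1.42.0, only the compared groups, all 48 samples, no day 4 samples, a replicate block, and each sample left out in turn. Counts were simulated for the ileum step at week 3 over 21986 genes, with 200 genes changed and the spread taken from its trend with mean level. There the fit recovered 38% of 2-fold and 69% of 4-fold changes, and 4.46% of its calls were false. In the data 5891 genes were called in that step, so these rates are not those of the actual test. Exons of 12 of the 39 genes overlap another gene's, and for 4 of them (Npc1, Glb1, Ctsz and Lamp1) that gene has at least 5% of their counts.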

Additional observations from a re-analysis of the deposited data

Results flagged for a closer look

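For 4 genes the change from week 2 to week 3 differed between ileum and duodenum by the test of the difference itself (edgeR, adjusted p under 0.05). The step in the ileum minus that in the duodenum, on the log2 scale, was -1.98 for Ctsh, -1.54 for Gla, -1.53 for Galc and -1.54 for Gaa. Each fell in both regions, and farther in the ileum.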

How the results depend on the processing

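With 2 or 3 samples a group, the counts of the 39 genes for the age effect, the week 3 step and the mean regional difference over suckling stayed within 1.5 times under every alternative run, and those named below did not. Adding the 2 left-out samples (all 48 under their labels) lowered the number of the 39 genes called from 22 to 9 in the duodenum between day 0 and week 2, from 8 to 4 and from 15 to 8 for week 4 against week 3 in duodenum and ileum, from 13 to 1 for the regions at day 0 and from 13 to 7 at week 4, from 4 to 0 (9 at an unadjusted p under 0.05) for the difference of steps, from 20 to 9 for ileum day 8 against day 0, and from 10 to 1 (duodenum) and from 9 to 0 (ileum, with 12 at an unadjusted p under 0.05) between day 8 and week 2. Leaving out day 4 gave 13 for duodenum week 4 against week 3, 15 for the difference of steps, and 16 and 18 for week 2 against day 8. With only the compared groups there were 3 for the regions at day 0, 6 at week 4, 10 for the difference of steps, and 30 and 25 for week 2 against day 8. The regions at day 0 gave 8 without the filter. The difference of steps gave 7 with a mean count of at least 10 and 7 with DESeq2. The cause of these moves was not tested.

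With each sample left out in turn the counts were 5 to 9 for duodenum week 4 against week 3, 0 to 15 for the regions at day 0, 8 to 15 at week 4, 2 to 7 for the difference of steps, 9 to 22 for ileum day 8 against day 0, and, between day 8 and week 2, 2 to 8 in the duodenum and 0 to 7 in the ileum. A pair of single values changed sign, both from near 0: Npc1 in the duodenum at week 3 ran from -0.017 (without week 3 number 2) to 0.236 around 0.089, and the difference of steps of Tfeb from -0.57 to 0.031 (without duodenum week 2 number 2) around -0.17.

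The labels do not say whether a number marks a shared animal. Deviations of same-numbered duodenum and ileum samples of an age had r of -0.147 to 0.452 (mean 0.076, 23 pairs). Those of differently numbered samples had r of -0.502 to 0.499 (mean -0.039, 44 pairs). Not every same-numbered pair deviated together, and the highest r was that of a differently numbered pair, so the block was kept as an alternative. With the replicate block the 39 genes had 33 calls at week 3 in the duodenum and 38 in the ileum, 37 over suckling between the regions and 6 in the difference of steps. Over all genes, calls in the difference of steps numbered 303, against 577 with DESeq2, 113 with all 48 samples, 672 without day 4 and 584 with only the compared groups. Calls between the regions at day 0 numbered 1342, against 894 without the filter, 578 with all 48 samples and 2419 without day 4. Those at week 2 numbered 4922, against 2561 with all 48 and 7426 with only the compared groups, and those at week 4 numbered 6234, against 2491 with only the compared groups. Week 4 against week 3 had 2794 in the duodenum, against 4568 without day 4, and 3534 in the ileum, against 1527 with only the compared groups. Ileum week 2 against day 0 had 2715, against 1802 with all 48. Week 2 against day 8 had 3448 in the duodenum (1528 with all 48, 6278 with only the compared groups) and 1460 in the ileum (886 without the filter, 417 with all 48, 3037 without day 4, 3472 with only the compared groups, 60 without day 8 number 1).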

Other observations

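The 2 samples left out of the comparisons had sums near those of the opposite region. The 39 genes summed to 14300 CPM in the left-out duodenum sample of day 6, where the other duodenum samples of that age had 3735 and 5327 CPM. They summed to 3675 CPM in the left-out ileum sample, where the others had 14510 and 17670 CPM. These values are given without an explanation.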
